A study of Mus musculus with 16 samples.

Results

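The genes described here are 10 genes of prostaglandin and leukotriene synthesis and sensing: Pla2g4a, Ptgs1, Ptgs2, Ptges, Hpgds, Ptger2, Ptger4, Alox5, Alox5ap and Ltc4s. They were taken by name from the 55487 genes of the count table, and all 10 were among the 12372 genes that passed the filter on low counts. RNA was measured by stranded RNA-seq in 16 samples of bone marrow-derived macrophages (BMDMs) from 8-week-old wild-type Balb/c mice. Conditioned media (CM) came from 4T1 cells, a mouse mammary tumor line. Ruxolitinib inhibits the JAK1 and JAK2 kinases, and IKK-16 inhibits the IKK kinases upstream of NF-κB.

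The No_CM group (n = 2) received DMEM and No_CM_Rux (n = 3) received DMEM with ruxolitinib. The CM group (n = 3) received CM alone. CM_Rux_4h (n = 3), CM_Rux_2h (n = 2) and CM_Rux_IKK (n = 3) received CM and ruxolitinib at 0.5 μM, to which IKK-16 at 0.8 μM was added in CM_Rux_IKK. The labels give 2 h and 4 h in the names of 2 groups, without saying what was timed. They do not give the dose of ruxolitinib in No_CM_Rux, nor say whether samples of a group came from separate cultures or animals. The p-values rest on a spread between samples that was estimated jointly over all 16, and may not speak for separate animals. The study describes 2 h without serum before CM, with ruxolitinib already added in this step, and 4 h of treatment for RNA. It does not describe a 2 h treatment for RNA. Total counts per sample were between 18449388 and 46215853. All 9 macrophage markers were above 1 CPM (counts scaled to the library total) in every group, with summed levels of 40506 to 57834 CPM. Of 11 mast cell and basophil markers, 7 were at 0 in every group, including Cpa3, Fcer1a and Ms4a2, which define these cells, and Hdc alone passed 1 CPM in any group. Summed over this list, levels were 49.97 to 76.6 CPM in CM, 18.8 to 55.5 in CM_Rux_4h, 4.81 to 16.5 in CM_Rux_IKK, 3.91 to 8.53 in CM_Rux_2h and at most 0.453 in the groups without CM. Summed levels were also higher in CM than in No_CM for 5 eosinophil markers (11.9 to 22.02 against 3.90 to 6.02 CPM), 5 platelet and megakaryocyte markers (5.01 to 5.50 against 0.819 to 1.12 CPM) and 10 neutrophil markers (1.72 to 3.33 against 0.327 to 0.414 CPM). Only Ccr3 and Siglecf, Ppbp and Itga2b, and S100a8 passed 1 CPM among these in CM, where Epx and Il5ra, Gp9, Gp1bb and Gp6, and Ly6g, Elane, Cxcr2 and Retnlg were at 0. T and NK cell markers were at or near 0, and markers of epithelial cells such as 4T1 summed to at most 1.45 CPM. Of 5 fibroblast markers, 2 were above 1 CPM in every group. Their list summed to 10.4 to 18.5 CPM in CM and 11.1 to 17.9 CPM in No_CM, and to 5.04 to 20.4 CPM over all groups.

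Eicosanoids are made from arachidonic acid, which the cytosolic phospholipase A2 encoded by Pla2g4a frees from membrane phospholipids. Cyclooxygenases turn arachidonic acid into prostaglandin H2, and terminal synthases then make single prostaglandins such as PGE2 and PGD2. In the other branch, 5-lipoxygenase and its membrane partner make leukotriene A4, from which leukotriene C4 is formed. Macrophages carry both branches, and cyclooxygenase-2 and microsomal PGE synthase-1 are well known as inducible enzymes of the prostaglandin branch.

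The sequences before the start sites of Ptgs2, Ptges and Alox5 are shown because these were the members with the highest fold increases and the steepest fall in CM. Each is the 250 bases before the RefSeq start (GRCm38.p6), written 5′ to 3′ in the orientation of the gene, with a match to any of the motifs searched in capitals. They lie at chr1:150099781-150100030 on the plus strand (Ptgs2), chr2:30903298-30903547 on the minus strand (Ptges) and chr6:116461179-116461428 on the minus strand (Alox5).
Ptgs2: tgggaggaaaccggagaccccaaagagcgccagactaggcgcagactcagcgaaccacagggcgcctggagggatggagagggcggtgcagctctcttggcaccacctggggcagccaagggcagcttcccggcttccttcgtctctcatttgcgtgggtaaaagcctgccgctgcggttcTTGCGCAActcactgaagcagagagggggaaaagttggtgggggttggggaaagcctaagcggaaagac
Ptges: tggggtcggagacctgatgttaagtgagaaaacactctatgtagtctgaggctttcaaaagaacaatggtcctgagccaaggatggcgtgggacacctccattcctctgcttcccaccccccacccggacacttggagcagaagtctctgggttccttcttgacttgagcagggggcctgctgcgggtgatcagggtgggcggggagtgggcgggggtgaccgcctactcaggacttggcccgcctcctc
Alox5: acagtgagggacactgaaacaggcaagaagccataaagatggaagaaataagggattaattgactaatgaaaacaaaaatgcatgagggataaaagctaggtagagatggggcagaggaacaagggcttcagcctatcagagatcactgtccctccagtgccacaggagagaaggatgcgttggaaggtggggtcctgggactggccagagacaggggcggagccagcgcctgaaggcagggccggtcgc
The Ptgs2 window overlaps exons of the antisense gene Ptgs2os over 183 bases. The Ptges window lies inside the annotated gene, outside its exons, since other annotated transcripts start further upstream. In the count table's GRCm38 annotation, Ptgs2 (ENSMUSG00000032487) spans chr1:150100031-150108227, Pla2g4a (ENSMUSG00000056220) lies on the same chromosome at chr1:149829618-149961290 on the minus strand, and Ptges (ENSMUSG00000050737) spans chr2:30889471-30929863. Hpgds (ENSMUSG00000029919) and Alox5 (ENSMUSG00000025701) are both on the minus strand of chromosome 6, at chr6:65117293-65144908 and chr6:116410077-116461178. Motifs were searched on both strands: the kappaB motif, STAT (TTCNNNGAA), the CRE core (TGACG), AP-1 (TGANTCA) and C/EBP (TTGCNNAA). The capitals in the Ptgs2 window are a C/EBP match at bases 69 to 62 before the start. Windows of 9 of the 10 members were found in the RefSeq table, and the only other match among them was a C/EBP match in the window of Hpgds. Bases further upstream or after the start were not searched. The absence of a match in a window therefore does not show that the promoter lacks the motif. Of 32851 windows of this length, 9.56% held the C/EBP motif, 7.25% kappaB, 7.02% STAT, 17.8% the CRE core and 6.75% AP-1. A match is a run of letters and no evidence of binding.

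The first question was how tumor-derived factors changed these genes. In CM, 4 of the 10 genes were higher than in No_CM and 3 were lower. The genes that rose encode the phospholipase (Pla2g4a), cyclooxygenase-2 (Ptgs2), the PGE2 synthase (Ptges) and the PGE2 receptor EP2 (Ptger2). Those that fell encode cyclooxygenase-1 (Ptgs1), the PGD2 synthase (Hpgds) and 5-lipoxygenase (Alox5). A gene was called when its Benjamini-Hochberg adjusted p was under 0.05 and its log2 fold change was beyond 0.5, in edgeR's quasi-likelihood test. Of all 12372 genes, 20.9% were called higher and 24.1% lower in this comparison, so that calls in either direction were common. The median log2 fold change was -0.21 over the members and -0.005 over all genes.

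Pla2g4a was at 193, 167 and 141 CPM in CM and at 39.6 and 29.8 CPM in No_CM. Every CM sample was above both No_CM samples, and the difference was 2.27 ± 0.22 on the log2 scale (SE, adjusted p = 1.2e-06). In bulk RNA, a change in the number of cells that express a gene cannot be told apart from a change in RNA per cell, here and below.

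Ptgs2, which encodes the inducible cyclooxygenase, was at 3329.6, 3979 and 2511 CPM in CM and at 10.1 and 6.02 CPM in No_CM. The groups lay far apart, with a log2 fold change of 8.65 ± 0.47 (SE, adjusted p = 6.6e-09), which is 403-fold. Ptgs1, the constitutive cyclooxygenase, went the other way. It was at 8.79, 9.75 and 13.2 CPM in CM and at 18.8 and 28.7 CPM in No_CM, without overlap. Its log2 fold change was -1.16 ± 0.30 (SE, adjusted p = 0.0041), but without the second No_CM sample it was -0.82 with an adjusted p of 0.072.

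Ptges, the microsomal synthase that makes PGE2, was at 391, 455 and 561 CPM in CM and at 5.29 and 3.52 CPM in No_CM. This was an increase of 6.72 ± 0.28 on the log2 scale (SE, adjusted p = 1.0e-09), which is 105-fold. Hpgds, the hematopoietic synthase that makes PGD2, was at 66.0, 66.7 and 58.0 CPM in CM and at 171 and 299 CPM in No_CM. Its CM samples were all below the No_CM samples, with a log2 fold change of -1.88 ± 0.20 (SE, adjusted p = 2.8e-06). Ptges and Hpgds thus moved in opposite directions. Of 6 other prostanoid synthase genes tested, 1 was called higher and 1 lower here, against 20.9% and 24.1% of all genes. Hpgds is also known from mast cells. Of the 11 mast cell and basophil markers, Hdc alone passed 1 CPM in CM, and 7 were at 0. A part of such cells in the result was not tested.

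**Figure D1:**
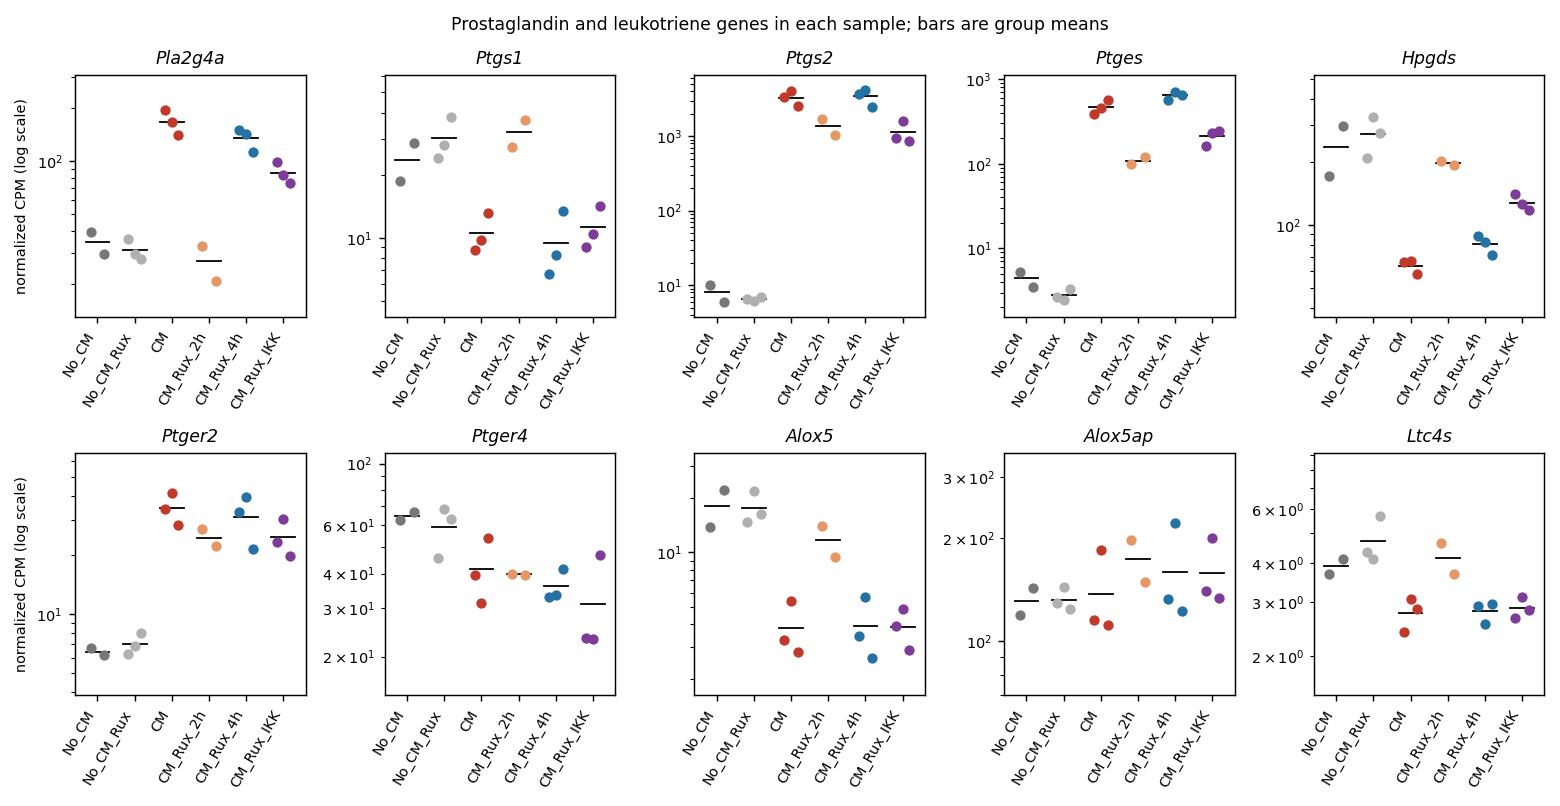
Normalized CPM (log axis) of each of the 10 genes in every sample, by group; points are samples and bars are group means. Ptgs2 and Ptges lie at or below 10.1 CPM in the 5 samples without CM and at 98.5 CPM or more in the samples with CM, while Hpgds, Ptgs1 and Alox5 are highest in samples without CM and in CM_Rux_2h.

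The receptors through which PGE2 raises cyclic AMP were measured as well. Ptger2, which encodes EP2, was at 34.4, 41.4 and 28.5 CPM in CM and at 6.68 and 6.18 CPM in No_CM. It rose by 2.43 ± 0.26 on the log2 scale (SE, adjusted p = 3.2e-06). Ptger4, which encodes EP4, was at 39.6, 31.2 and 53.8 CPM in CM and at 62.5 and 66.9 CPM in No_CM. The Ptger4 samples did not overlap, but the difference of -0.64 ± 0.28 did not pass (SE, adjusted p = 0.059). It was called lower with the replicate number as a block (-0.82, adjusted p = 0.0026), in DESeq2 (0.039), without the filter (0.0048), by total counts (0.0092), in a fit of these 2 groups alone (0.029) and without the third CM sample (0.021) or the second or the third CM_Rux_IKK sample (0.049 and 0.013).

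In the leukotriene branch, Alox5 was at 3.28, 5.41 and 2.81 CPM in CM and at 13.8 and 22.3 CPM in No_CM. Alox5 fell by 2.20 ± 0.34 on the log2 scale (SE, adjusted p = 8.3e-05). Alox5ap, which encodes the 5-lipoxygenase-activating protein, was at 116, 185 and 112 CPM in CM and at 119 and 143 CPM in No_CM. The Alox5ap groups overlapped, and the difference was 0.07 with an interval of -0.53 to 0.66 (95%, adjusted p = 0.84). Ltc4s, which encodes leukotriene C4 synthase, was low in all samples, from 2.39 to 5.70 CPM on 43 to 185 counts. Its values were 2.39, 3.06 and 2.85 CPM in CM and 3.69 and 4.13 CPM in No_CM, and its log2 fold change of -0.48 ± 0.18 (SE, adjusted p = 0.031) lay within the fold threshold. It was called lower with the replicate block (-0.52, adjusted p = 0.021), by total counts (-0.80, 0.0012) and without the second CM sample (-0.57, 0.032).

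The balance between paired enzymes was compared per kilobase of exon (CPM per kb), since levels of different genes are comparable only per length. The length was that of all annotated exons of a gene, and which transcripts were expressed was not tested. The share of Ptges leaves out the other prostanoid synthases. Ptgs2 made up 15.1% and 31.3% of the summed level of both cyclooxygenases in No_CM and 13.4% to 18.5% in No_CM_Rux. In CM it made up 99.4% to 99.7%, and in the other groups with CM between 96.0% and 99.8%. Ptges made up 1.89% and 4.81% of the summed level of Ptges and Hpgds in No_CM and 90.6% to 94.1% in CM. The share was 91.2% to 93.7% in CM_Rux_4h, 65.3% to 77.4% in CM_Rux_IKK and 44.3% to 50.2% in CM_Rux_2h, and these last groups did not overlap with any other. In No_CM, Alox5ap had the highest level per length of the 10 genes, at 92.3 ± 11.9 CPM per kb (SD, n = 2), and Ptges the lowest, at 1.12 ± 0.32. In CM, Ptgs2 was highest at 715 ± 161 CPM per kb (SD, n = 3), followed by Ptges at 119 ± 21.9 and Alox5ap at 96.7 ± 29.0, and these last 2 overlapped within their SDs.

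**Figure D2:**
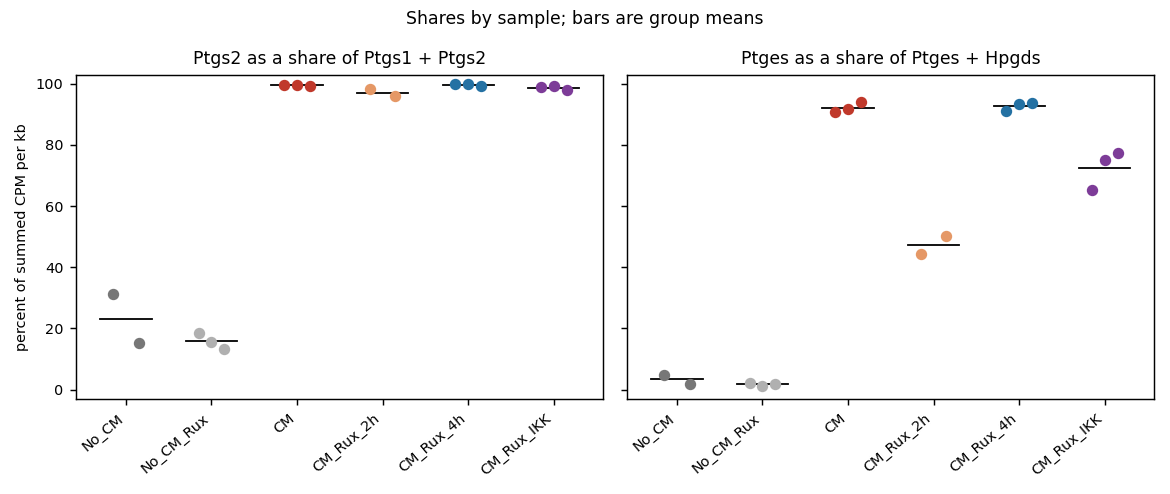
Share of Ptgs2 in the summed level of Ptgs1 and Ptgs2 (left) and share of Ptges in the summed level of Ptges and Hpgds (right), in percent of CPM per kb, by group; points are samples and bars are group means. The Ptges share is at most 4.81% without CM and at least 90.6% in CM and CM_Rux_4h, with CM_Rux_IKK and CM_Rux_2h in between.

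The same change of medium was also tested with ruxolitinib on both sides. In CM_Rux_4h, 4 genes were higher and 5 lower than in No_CM_Rux, against 22.3% and 25.0% of all genes. This comparison shares no samples with that of CM against No_CM, but both came from 1 model with a joint spread. Same-numbered samples of CM and CM_Rux_4h also deviated together (correlations of 0.43 to 0.62), as did those of No_CM and No_CM_Rux (0.30 to 0.32). The 2 comparisons are therefore not fully independent. Ptgs2 was at 3639.8, 4191 and 2435 CPM in CM_Rux_4h and at 6.51, 6.14 and 6.96 CPM in No_CM_Rux, a difference of 9.03 ± 0.39 on the log2 scale (SE, adjusted p = 4.8e-10). Ptges was at 561, 709 and 657 CPM against 2.68, 2.48 and 3.34 CPM, a difference of 7.83 ± 0.25 (SE, adjusted p = 6.6e-11). Both genes were thus called in the presence of the JAK inhibitor as they were in its absence.

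The log2 fold changes of the other genes that rose in CM_Rux_4h were 2.13 for Pla2g4a (adjusted p = 3.1e-07) and 2.15 for Ptger2 (adjusted p = 1.3e-06). The genes that fell were Ptgs1 (-1.69), Hpgds (-1.74), Alox5 (-2.14), Ltc4s (-0.76) and Ptger4 (-0.72). Ltc4s was at 2.91, 2.54 and 2.95 CPM in CM_Rux_4h and at 4.34, 4.13 and 5.70 CPM in No_CM_Rux, without overlap (adjusted p = 7.9e-04). Ptger4 was at 33.0, 33.4 and 41.6 CPM against 45.4, 68.4 and 63.3 CPM (adjusted p = 0.021), and its call was lost when the first or second CM_Rux_4h sample or the second or the third No_CM_Rux sample was left out (adjusted p = 0.058 to 0.080). Alox5ap was at 133, 221 and 123 CPM against 129, 144 and 124 CPM, and its difference of 0.27 was not called (adjusted p = 0.34).

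**Figure D3:**
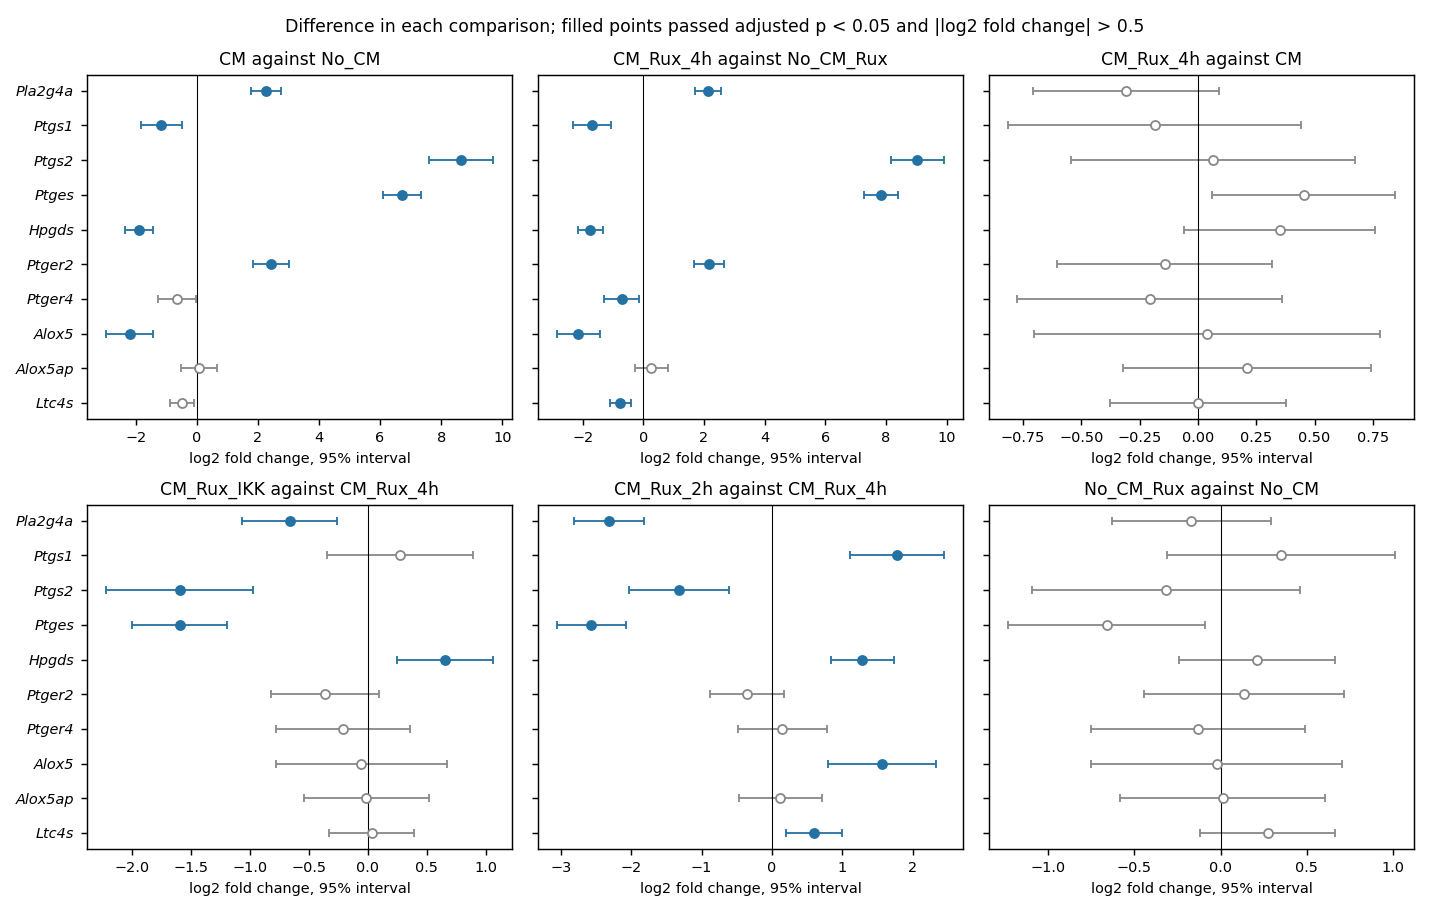
Log2 fold change of each of the 10 genes in 6 comparisons, each panel with its own axis; points are estimates, bars are 95% intervals, and filled points were called. In both comparisons of CM with DMEM, Pla2g4a, Ptgs2, Ptges and Ptger2 lie above 0 and Ptgs1, Hpgds and Alox5 below it, and no point is filled in the 2 comparisons of ruxolitinib with no inhibitor.

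The next question was whether ruxolitinib changed the response to CM. None of the 10 genes was called in CM_Rux_4h against CM by edgeR's quasi-likelihood test, and none by DESeq2, against 1.20% of all genes called higher and 2.13% lower. Of all 12372 genes, 1892 had an unadjusted p under 0.05, and of the 10 members 1, Ptges. Its CM_Rux_4h samples of 561, 709 and 657 CPM reached the highest CM sample of 561 CPM and lay above the others, and its log2 fold change was 0.45 with an interval of 0.06 to 0.85 (95%, adjusted p = 0.20). Ptgs2 overlapped fully between the groups, with a difference of 0.06 and an interval of -0.55 to 0.67 (95%, adjusted p = 0.97).

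Hpgds was at 88.7, 82.4 and 71.8 CPM in CM_Rux_4h, above all 3 CM samples, with a log2 fold change of 0.35 and an interval of -0.06 to 0.76 (95%, adjusted p = 0.41). Pla2g4a was at 149.9, 142 and 112 CPM, overlapping with CM, with a difference of -0.31 and an interval of -0.71 to 0.09 (95%, adjusted p = 0.47). The intervals of Ptger2 (-0.60 to 0.32), Ptger4 (-0.77 to 0.36), Ptgs1 (-0.81 to 0.44), Alox5 (-0.70 to 0.78), Alox5ap (-0.32 to 0.74) and Ltc4s (-0.38 to 0.38) all included 0. By replicate number, Pla2g4a and Ptger2 were lower in CM_Rux_4h in 3 of 3 pairs, and Ptges, Hpgds and Alox5ap were higher in 3 of 3. This was counted for the members only, so how common such agreement was among all genes is not known. With the replicate block the adjusted p was 0.028 for Pla2g4a (-0.31) and 0.022 for Ptges (0.47), and both remained uncalled because these changes were within the fold threshold. The unblocked intervals leave room for changes beyond the fold threshold for every member except Ltc4s.

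Without CM, none of the 10 genes was called between No_CM_Rux and No_CM by edgeR or DESeq2, against 0% of all genes called higher and 0.970% lower. Here too 1 member, Ptges, had an unadjusted p under 0.05, against 643 of all 12372 genes. Ptges was at 2.68, 2.48 and 3.34 CPM in No_CM_Rux, below both No_CM samples, with a log2 fold change of -0.66 and an interval of -1.23 to -0.09 (95%, adjusted p = 0.74). Ptgs2 differed by -0.32 with an interval of -1.09 to 0.46 (95%).

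The effect of ruxolitinib with CM was then compared with its effect without CM in an interaction term. No member was called, against 0.234% of all genes called higher and 0.178% lower. An unadjusted p under 0.05 was found for 1 member, against 1123 of all 12372 genes. For Ptges the difference between the effects was 1.11 with an interval of 0.42 to 1.81 (95%, adjusted p = 0.15). It was called in the fit with the replicate block (1.28, adjusted p = 0.011) and in DESeq2 (1.11, adjusted p = 0.021). With a sample left out it ranged from 0.77, without the first No_CM sample, to 1.36, without the second. These 2 No_CM samples held 179 and 86 counts of Ptges. For Ptgs2 it was 0.38 with an interval of -0.61 to 1.37 (95%).

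IKK-16 was added to test the part of NF-κB in the genes expressed under CM and ruxolitinib. In CM_Rux_IKK, 3 members were lower and 1 was higher than in CM_Rux_4h, against 3.66% and 4.07% of all genes. The genes that fell were those of the route from phospholipids to PGE2, Pla2g4a, Ptgs2 and Ptges, and the gene that rose was Hpgds. Ptgs2 was at 949, 1591 and 863 CPM in CM_Rux_IKK, below the lowest CM_Rux_4h sample of 2435 CPM. It fell by 1.59 ± 0.28 on the log2 scale (SE, adjusted p = 0.0024), which is 3.02-fold. Ptges was at 162, 231 and 246 CPM, below the lowest CM_Rux_4h sample of 561 CPM, and also fell by 1.59 ± 0.18 (SE, adjusted p = 1.7e-04). Both genes stayed far above the groups without CM, where no sample exceeded 10.1 CPM.

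Pla2g4a was at 98.2, 83.3 and 74.4 CPM in CM_Rux_IKK, without overlap with CM_Rux_4h, and fell by 0.66 ± 0.18 (SE, adjusted p = 0.025). Hpgds was at 140.2, 125 and 117 CPM, also without overlap, and rose by 0.66 ± 0.18 (SE, adjusted p = 0.028). Each of these 2 calls was lost in 4 of the fits that left out a sample, and that of Pla2g4a also with scaling by total counts (-0.57, adjusted p = 0.055). For Pla2g4a these were the fits without the first or second CM_Rux_4h sample or the second or the third CM_Rux_IKK sample (adjusted p = 0.061 to 0.097). For Hpgds they were the fits without the second or the third CM_Rux_4h sample or the first or second CM_Rux_IKK sample (adjusted p = 0.051 to 0.10).

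The other 6 members were not called in this comparison. Ptger2 was at 23.3, 30.6 and 19.7 CPM in CM_Rux_IKK and at 32.9, 39.7 and 21.5 CPM in CM_Rux_4h, with a difference of -0.36 and an interval of -0.82 to 0.10 (95%). Ptger4 was at 23.4, 23.2 and 46.6 CPM and Ptgs1 at 9.02, 10.5 and 14.3 CPM, and both overlapped with CM_Rux_4h. The leukotriene genes differed by -0.05 for Alox5, -0.01 for Alox5ap and 0.04 for Ltc4s, with intervals of -0.78 to 0.67, -0.54 to 0.52 and -0.32 to 0.40 (95%).

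CM_Rux_2h differed from CM_Rux_4h in 7 of the 10 genes, with 4 higher and 3 lower, against 12.6% and 10.7% of all genes. The genes that were lower in CM_Rux_2h were Pla2g4a, Ptgs2 and Ptges, and those that were higher were Ptgs1, Hpgds, Alox5 and Ltc4s. Ptgs2 was at 1709.8 and 1035 CPM in CM_Rux_2h, which is below CM_Rux_4h by 1.32 ± 0.32 on the log2 scale (SE, adjusted p = 0.0053). Without the second of these samples, replicate 3, the difference was -1.0 and the adjusted p 0.079. Ptges was at 98.5 and 119 CPM, with a log2 fold change of -2.57 ± 0.22 (SE, adjusted p = 1.8e-06). Both genes were still above every sample without CM.

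Pla2g4a was at 33.0 and 20.8 CPM in CM_Rux_2h, a difference of -2.31 ± 0.22 from CM_Rux_4h (SE, adjusted p = 5.3e-06), and these values fell within or below the range of the samples without CM, 27.6 to 39.6 CPM. Ptger2 was at 27.0 and 22.1 CPM, above the samples without CM, and its difference from CM_Rux_4h of -0.36 had an interval of -0.88 to 0.17 (95%). Ptger2 and Ptgs2 were thus above the samples without CM while Pla2g4a was not.

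Hpgds was at 202 and 193 CPM and Ptgs1 at 27.4 and 36.9 CPM in CM_Rux_2h, within the range of the samples without CM. They were higher than in CM_Rux_4h by 1.28 ± 0.20 (SE, adjusted p = 2.6e-04) and 1.78 ± 0.30 (SE, adjusted p = 4.5e-04). Alox5 was at 14.1 and 9.41 CPM, a difference of 1.56 ± 0.34 (SE, adjusted p = 0.0028), and Ltc4s at 4.67 and 3.68 CPM, a difference of 0.59 ± 0.18 (SE, adjusted p = 0.018). Both calls were lost without the first of these samples, replicate 2 (adjusted p = 0.052 for Alox5 and 0.23 for Ltc4s), and that of Ltc4s also without the second CM_Rux_4h sample (0.061) and in a fit of these 2 groups alone (0.051). Of 5 dendritic cell markers, Zbtb46 alone was higher than 1 CPM in CM_Rux_2h and brought their sum to 8.59 and 12.7 CPM, against at most 2.36 CPM in the other groups, while Flt3 was at 0 and Xcr1 and Clec9a were at 0.014 and 0.028 CPM on average.

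Across the 6 groups, the means of Ptges ran from CM_Rux_4h (642 CPM) through CM (469), CM_Rux_IKK (213), CM_Rux_2h (109) and No_CM (4.41) to No_CM_Rux (2.83), and only CM_Rux_4h and CM met in their ranges. For Ptgs2 the order was CM_Rux_4h (3422 CPM), CM (3273), CM_Rux_2h (1373), CM_Rux_IKK (1134), No_CM (8.05) and No_CM_Rux (6.54), and the samples of CM_Rux_4h and CM, of CM_Rux_2h and CM_Rux_IKK, and of No_CM and No_CM_Rux overlapped. Hpgds ran the other way, from No_CM_Rux (271 CPM) through No_CM (235), CM_Rux_2h (197), CM_Rux_IKK (128) and CM_Rux_4h (80.9) to CM (63.6), and No_CM overlapped with both of its neighbours. Ptgs1 and Alox5 separated the same 2 sets of groups, No_CM, No_CM_Rux and CM_Rux_2h above CM, CM_Rux_4h and CM_Rux_IKK.

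The genes whose pattern over the 6 group means was most like that of a member were found by the root mean square difference of centred log2 CPM. For Ptgs2 they were Trem1 (0.33), Socs3 (0.49) and Csf3 (0.51), and for Ptges Thbs1 (0.36), Slc7a2 (0.40) and Cd38 (0.40). For Hpgds they were Inpp5j (0.083), Trim2 (0.086) and Tmem231 (0.11), and for Alox5 Kif19a (0.12), Lpl (0.12) and Clec4b1 (0.12). Il1rl2 (0.11) was nearest to Ptger2, Itga8 (0.037) to Ptgs1 and Gys1 (0.16) to Pla2g4a. The nearest genes to Ptger4, Alox5ap and Ltc4s were Gm10501 (0.089), Nr6a1 (0.020) and Scarb1 (0.044). A small difference comes easily for genes whose own range is small, such as Alox5ap.

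Other genes of the pathway were taken from a list of 59, of which 58 were found in the table and 31 were tested. Those that failed the filter reached at most 1.20 CPM in any sample, among them the PGE2 receptors Ptger1 and Ptger3, the leukotriene B4 receptor Ltb4r1 and the lipoxygenase Alox15. In CM against No_CM, 7 were higher, 9 were lower and 15 were not called, with a median log2 fold change of -0.13. These counts stand beside the 20.9% of all genes called higher and 24.1% called lower, so the share of calls in the list was near that of all genes. The largest increases were those of Acsl4, which activates arachidonic acid for storage in phospholipids (705 against 168 CPM, 2.07 ± 0.26), and Abcc4, an exporter of prostaglandins (98.8 against 33.6 CPM, 1.56 ± 0.12). The largest falls were those of Hpgd, the dehydrogenase that inactivates prostaglandins, and Daglb, a diacylglycerol lipase. Hpgd was at 1.45, 1.07 and 0.285 CPM in CM and at 22.6 and 24.7 CPM in No_CM, a difference of -4.69 ± 0.66 (SE, adjusted p = 3.4e-05). Daglb was at 15.5 CPM on average in CM and at 113 CPM in No_CM, a difference of -2.86 ± 0.19 (SE, adjusted p = 3.5e-08). By role, 3 of 12 genes of phospholipase and arachidonate handling were higher and 3 lower, and of 5 further leukotriene genes 1 was higher and 3 were lower.

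In CM_Rux_4h against No_CM_Rux, 9 of the 31 were higher and 13 lower, against 22.3% and 25.0% of all genes. The extremes were Acsl4 (2.33 ± 0.23) and Fpr2, a receptor for lipoxin and formyl peptides (2.003 ± 0.28), above, and Hpgd (-4.40 ± 0.60) and Daglb (-2.71 ± 0.17) below. In CM_Rux_2h against CM_Rux_4h, 10 were higher and 4 lower, against 12.6% and 10.7% of all genes. Here Hpgd (3.14 ± 0.63) and Daglb (1.80 ± 0.18) were highest, and Abcc4 (-1.44 ± 0.12) and Fpr2 (-1.34 ± 0.31) lowest. Hpgd was at 15.7 and 4.56 CPM in CM_Rux_2h, and without the first of these samples its call was lost (1.94, adjusted p = 0.074).

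In CM_Rux_IKK against CM_Rux_4h, 4 of the 31 were higher and 2 lower, against 4.07% and 3.66% of all genes. Those highest were Dagla, a diacylglycerol lipase (0.77 ± 0.17), and Lta4h, which makes leukotriene B4 (0.57 ± 0.10), and the lower ones were Fpr2 (-1.13 ± 0.27) and Abcc4 (-0.58 ± 0.10). Fpr2 was no longer called without the third CM_Rux_4h or the first CM_Rux_IKK sample (adjusted p = 0.051 and 0.060), nor Abcc4 without the second CM_Rux_4h or the first CM_Rux_IKK sample (-0.50 and -0.48). Without the first CM_Rux_IKK sample, 2 genes of the list were called in place of 6. In CM_Rux_4h against CM, 1 was higher and 2 were lower, against 1.20% and 2.13% of all genes. In No_CM_Rux against No_CM none was called by edgeR or DESeq2. There 4 of the 31 had an unadjusted p under 0.05, against 643 of all 12372 genes. Pla2g15, a lysosomal phospholipase, was at 88.7, 98 and 92.9 CPM in CM_Rux_4h and at 176, 188 and 188 CPM in CM, a difference of -0.98 ± 0.08 (SE, adjusted p = 3.2e-05). Cysltr1, a receptor for cysteinyl leukotrienes, was at 11.8 against 21.0 CPM on average (-0.84 ± 0.12, adjusted p = 0.0010). Prxl2b, which makes prostaglandin F2α, was at 20.3 against 14.2 CPM (0.51 ± 0.11, adjusted p = 0.020), and its call was lost when the first or the third CM sample or the second or the third CM_Rux_4h sample was left out (adjusted p = 0.064 to 0.082).

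**Figure D4:**
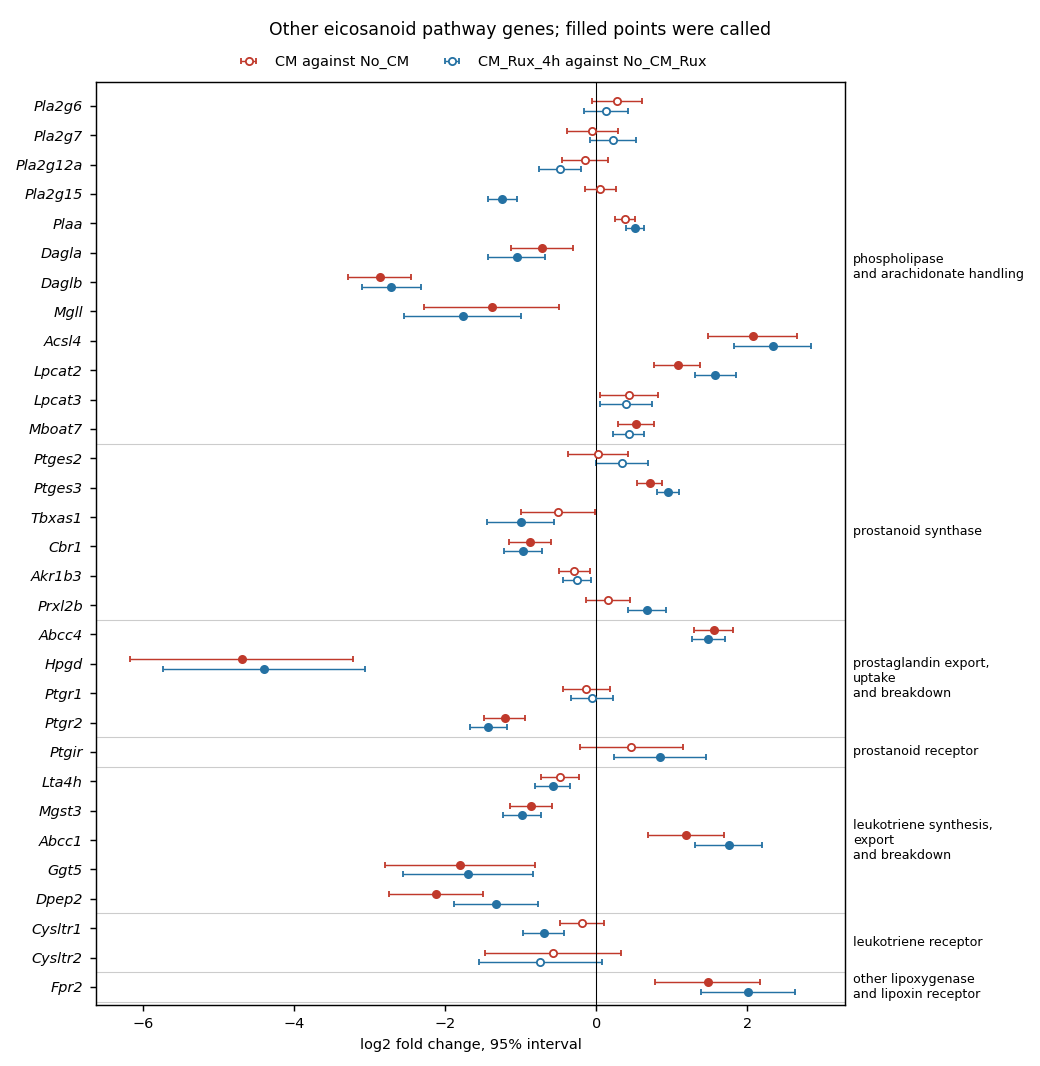
Log2 fold change of the 31 other eicosanoid pathway genes tested, by role, in CM against No_CM (red) and in CM_Rux_4h against No_CM_Rux (blue); bars are 95% intervals and filled points were called. Hpgd and Daglb lie furthest below 0 and Acsl4 furthest above it in both comparisons, while Pla2g15 is near 0 in the first and at -1.24 in the second.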

How the data were processed

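RNA of 16 samples of BMDMs in 6 groups was analysed. The authors trimmed reads with Trimmomatic 0.33, aligned them to GRCm38 with HISAT2 2.1.0 and counted fragments with featureCounts 1.6.2 against the Ensembl annotation, with both ends mapped, the reverse strand setting and a mapping quality of at least 10. They deposited whole-number counts per gene without scaling or filter, and 18449388 to 46215853 counts per sample. Strand-aware counting separates antisense genes such as Ptgs2os from their partners, while fragments shared with the same-strand gene Gm13400 could not be assigned to Ptges.

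Symbols came from a GRCm38 gene name table, which matched 55141 of 55487 identifiers and all 10 members. Gene positions are those of the count table. Library sizes were scaled with the relative log expression (RLE) factors, and a gene was tested when 2 or more samples exceeded 1 CPM. In R 4.3.3, edgeR 4.0.16 with limma 3.58.1 fitted 1 quasi-likelihood model to all groups, with p-values adjusted over 12372 genes. The scaling, filter, adjustment and thresholds follow the study's edgeR methods. The quasi-likelihood test and the joint fit were chosen here, and the study's statistics section names a different test. Intervals are 95% and use 10 residual degrees of freedom. CPM values use the RLE-scaled totals. Compared with scaling by total counts, RLE raised the median log2 fold change over the genes tested by 0.31 in CM against No_CM and by 0.30 in CM_Rux_4h against No_CM_Rux, and shifted it by less than 0.1 elsewhere. Alternatives were TMM, no filter, DESeq2 1.42.0, the replicate block, only the groups compared, no fold threshold, each sample left out and, added after seeing the data, scaling by total counts.

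Same-numbered samples deviated together, with correlations of 0.17 to 0.63 in every pair of the 6 comparisons. The replicate numbers were taken as pairs only in the fit with the replicate block and in the counts by replicate number. The main model, with its intervals and adjusted p-values, did not use this pairing. No replicates were copies of each other (chi-square per degree of freedom of at least 13.2). The test was checked on simulated counts in which few genes changed, unlike in CM against No_CM. This check therefore does not speak for the scaling in that comparison. Named genes were all 10 members, the 2 highest and 2 lowest called pathway genes per comparison with a mean of at least 1 CPM, and the nearest patterns. Members and lists were chosen with earlier results of these data known. Dpep2 matched 2 overlapping identifiers, of which that with more counts was used. Promoter sequences are from RefSeq, and figures were drawn with Python 3.11.15 and matplotlib 3.10.9.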

Additional observations from a re-analysis of the deposited data

Results flagged for a closer look

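Of the 10 members and the 31 other pathway genes tested, Pla2g15 alone had a called difference between the effects of ruxolitinib with CM and without CM in the fit without the replicate block. With the block, 4 pathway genes were called, Pla2g15 (-1.28), Cysltr1 (-0.57), Prxl2b (0.55) and Lpcat2 (0.55), and so was the member Ptges (1.28, adjusted p = 0.011). For Pla2g15 the difference without the block was -1.30 ± 0.13 on the log2 scale (SE, edgeR's quasi-likelihood test, adjusted p = 9.5e-04). With CM, Pla2g15 was lower with ruxolitinib in all 3 samples, with a fitted difference of -0.98 between the groups, and without CM it was at 222, 193 and 247 CPM in No_CM_Rux and at 172 and 183 CPM in No_CM, a difference of 0.32 (adjusted p = 0.28).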

How the results depend on the processing

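Leaving out CM_Rux_2h samples leaves 1 sample in that group, which is then assumed to vary like the others. Over all genes, CM_Rux_4h against CM gave 412 calls, 685 without the filter, 745 with the replicate block and 243 to 486 with a sample left out. CM_Rux_IKK against CM_Rux_4h gave 957, and 1778 without the fold threshold, and CM_Rux_2h against CM_Rux_4h 2883 and 4726. The interaction gave 51, 349 without the filter, 444 with the block, 237 in DESeq2, 90 by total counts and 17 to 114 with a sample left out. Of the members, 1 (Ptges) was called in the interaction without the filter, with the block and in DESeq2, and 2 to 4 in CM_Rux_IKK against CM_Rux_4h with a sample left out. Other pathway genes called in the interaction numbered 1, and 4 with the block. The block also turned Ptger4 (-0.82) and Ltc4s (-0.52) to calls in CM against No_CM and changed no other member's call. The cause of these changes was not tested. Depth limits Ltc4s most, at 43 to 185 counts per sample.

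Called directions of members held in all 23 alternatives. Signs of uncalled members turned as follows. By total counts, Alox5ap was at -0.25 in CM against No_CM, -0.046 in CM_Rux_4h against No_CM_Rux and 0.082 in CM_Rux_IKK against CM_Rux_4h, and Alox5 at 0.044 in the last. For Alox5ap there, TMM gave 0.0058, the block 0.0092 and the groups alone 0.0031. For Ltc4s in CM_Rux_4h against CM, TMM gave -0.0010 and DESeq2 -0.0078. With the block, Alox5 was at 0.13 in No_CM_Rux against No_CM and at -0.088 in the interaction, and Ptger4 at 0.10 there.

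With a sample left out, CM_Rux_4h against CM ranged from -0.50 to 0.018 for Ptgs1, -0.11 to 0.26 for Ptgs2, -0.34 to 0.062 for Ptger2, -0.38 to 0.026 for Ptger4, -0.34 to 0.41 for Alox5, -0.10 to 0.49 for Alox5ap and -0.084 to 0.083 for Ltc4s. CM_Rux_IKK against CM_Rux_4h ranged from -0.25 to 0.33 for Alox5, -0.21 to 0.30 for Alox5ap and -0.036 to 0.091 for Ltc4s. No_CM_Rux against No_CM ranged from -0.36 to 0.052 for Pla2g4a, -0.63 to 0.12 for Ptgs2, -0.14 to 0.67 for Hpgds, -0.25 to 0.027 for Ptger4, -0.33 to 0.36 for Alox5 and -0.12 to 0.15 for Alox5ap. The interaction ranged from -0.36 to 0.047 for Pla2g4a, -0.053 to 0.69 for Ptgs2, -0.32 to 0.49 for Hpgds, -0.25 to 0.15 for Ptger4, -0.32 to 0.43 for Alox5 and -0.12 to 0.47 for Alox5ap. Alox5ap ranged from -0.21 to 0.21 in CM against No_CM, -0.046 to 0.42 in CM_Rux_4h against No_CM_Rux and -0.10 to 0.43 in CM_Rux_2h against CM_Rux_4h.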
